A study of Mus musculus with 6 samples.

Results

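The genes described here encode the matricellular proteins that activated fibroblasts secrete, namely *Postn*, *Tnc*, *Spp1*, *Sparc*, *Cthrc1*, *Cilp*, *Ccn1*, *Ccn2*, *Ccn4* and *Fn1*, chosen by name. Of these 10 genes, 9 were measured by 17 probe sets, among 18193 genes and 34945 probe sets that carried exactly 1 gene symbol. *Spp1* was not analysed here. The genes and the lists compared with them were chosen with earlier results of these data known. The mRNA came from whole ventricles of 3 OE mice, which carried *Myh6-MerCreMer* together with *CAG-S-COUP-TFII*, and of 3 CTRL mice, which carried *Myh6-MerCreMer* alone, all on a mixed 129SvEv/C57Bl6/J background. Mice of both genotypes were given tamoxifen for 3 days, 40 mg per kg each day, from the age of 2 months, and the ventricles were taken on day 16 after the first dose, at 2.5 months. The *Myh6* promoter restricts the Cre recombinase to cardiomyocytes, so the transgene was switched on in cells other than the fibroblasts to which the 10 genes are usually assigned, and the CTRL mice shared both the Cre protein and the drug.

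Matricellular proteins are secreted into the extracellular matrix, where they act less as scaffold than as messengers: they bind collagens, integrins and growth factors and change how cells attach, migrate and respond to signals. In the resting adult heart most of them are scarce, and they appear where fibroblasts become activated after injury, pressure overload or cardiomyocyte stress. TGF-beta, acting through SMAD proteins, and mechanical tension, acting through YAP, TAZ and the TEAD factors, are well known inducers of several of them. COUP-TFII, encoded by *Nr2f2*, is a nuclear receptor that binds DNA at repeats of the half-site AGGTCA.

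Promoter sequence was available for 6 of the 10 genes (*Postn*, *Tnc*, *Spp1*, *Sparc*, *Cilp* and *Ccn1*), as the 250 bases before each annotated start in RefSeq on GRCm38.p6. Those of *Postn* and *Ccn1* are shown because these genes moved several-fold in OE ventricles with opposite patterns among the CTRL arrays, and because they hold the motifs of the known inducers and of the nuclear receptor. Capitals mark a SMAD motif (CAGAC), a TEAD motif (GGAATG), a nuclear receptor half-site (AGGTCA) or a TATA box (TATAAA), each searched on both strands, so a motif on the other strand appears as its reverse complement. *Postn* has more than 1 annotated start on chromosome 3, and the windows of 2 of them, chr3:54359017-54359266 and chr3:54360857-54361106 on the plus strand of GRCm38.p6, are given before that of *Ccn1*, chr3:145649986-145650235 on the minus strand.
Postn, upstream start: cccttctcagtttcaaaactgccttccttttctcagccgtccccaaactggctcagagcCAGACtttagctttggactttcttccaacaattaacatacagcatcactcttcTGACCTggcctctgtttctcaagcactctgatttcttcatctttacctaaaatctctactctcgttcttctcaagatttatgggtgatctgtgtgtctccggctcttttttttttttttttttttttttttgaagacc
Postn, downstream start: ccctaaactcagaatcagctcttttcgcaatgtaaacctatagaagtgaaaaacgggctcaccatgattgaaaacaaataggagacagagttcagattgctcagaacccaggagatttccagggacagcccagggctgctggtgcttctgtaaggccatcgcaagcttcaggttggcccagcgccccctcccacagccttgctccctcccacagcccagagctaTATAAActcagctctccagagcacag
Ccn1: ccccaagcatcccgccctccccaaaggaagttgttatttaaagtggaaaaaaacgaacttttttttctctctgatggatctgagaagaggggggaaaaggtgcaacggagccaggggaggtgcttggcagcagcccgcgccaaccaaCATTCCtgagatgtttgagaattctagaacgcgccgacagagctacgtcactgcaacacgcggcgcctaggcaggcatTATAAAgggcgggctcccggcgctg

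The upstream *Postn* window held a SMAD motif at 191 to 187 bases before the start and a half-site, on the other strand, at 138 to 133 bases. The downstream *Postn* window held only a TATA box of these motifs, at 26 to 21 bases. The *Ccn1* window held a TEAD motif on the other strand at 103 to 98 bases and a TATA box at 25 to 20 bases. Such letters are common: among 32851 promoter windows of the same length, 42.2% held CAGAC, 14.0% AGGTCA, 12.6% GGAATG and 12.4% TATAAA. SMAD motifs also lay in windows of *Tnc*, *Sparc* and *Spp1*, whereas the *Cilp* window held none of the motifs. No window of the 6 genes held a direct repeat of the half-site with a spacing of 1 base, found in 0.0335% of all windows, or a CArG box, the element bound by SRF and found in 1.47%. A match says only that the letters are present.

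Each deposited value states how far a probe set on 1 array lies from its own median among all 6, read here in log2 units, since the log base is not stated. They hold no absolute level, so neither the level of 1 gene against another nor the presence of a cell type could be read from them. A value above 0 lies above the median array of that probe set. Because the median of 6 arrays is centred, a gene whose OE and CTRL values are fully separated has its lowest OE value and its highest CTRL value at equal distance from 0 by construction, for each probe set. The overexpressed gene followed the labels: the *Nr2f2* probe set 1416159_at gave 1.72, 1.60 and 1.91 in OE and −1.99, −1.60 and −1.65 in CTRL, an 11.24-fold difference (adjusted p = 2.574e-05). The other 5 *Nr2f2* probe sets were not called, with log2 changes between −0.335 and −0.127. Arrays were closer within a genotype (root mean square distance over genes of 0.194 to 0.233) than between genotypes (0.375 to 0.427).

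All 9 measured matricellular genes were higher in OE ventricles, at an adjusted p under 0.05 over all genes, and none was lower. Over all 18193 genes, 2709 (14.9%) were called higher and 2152 (11.8%) lower. The rises ranged from 10.29-fold for *Cilp* to 1.282-fold for *Sparc*, with a median log2 change of 1.78, against −0.03 over all genes. The 3 OE arrays lay above the 3 CTRL arrays for each of the 9 genes, as they did for 4009 of all genes (22.0%). With 3 arrays per genotype an exact permutation test of a single gene cannot go below p = 0.1, so the calls rest on limma, which borrows the spread from all genes. In whole ventricles, more cells that make an mRNA and more mRNA per cell cannot be told apart.

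*Cilp*, *Cthrc1* and *Postn* had the largest estimated changes of the 9 genes. The interval of *Postn* overlapped those of *Ccn1*, *Ccn2* and *Ccn4*. The intervals of *Cilp* and *Cthrc1* also overlapped those of *Ccn1* and *Ccn2*, and differences between genes were not tested. *Cilp* encodes cartilage intermediate layer protein, a secreted protein known to bind TGF-beta. Its values were 1.30, 1.16 and 1.03 in OE 1 to 3, against −2.50, −3.06 and −1.03 in CTRL 1 to 3. The OE arrays were tightly grouped and the CTRL arrays were not, with means of 1.17 ± 0.13 in OE and −2.20 ± 1.05 in CTRL (SD, n = 3 each). The change was 10.29-fold with a 95% confidence interval of 5.067 to 20.9 (adjusted p = 0.001806), and only 5 of all genes rose more.

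*Cthrc1* encodes a secreted collagen triple helix repeat protein that marks activated fibroblasts in injured tissue and takes part in Wnt signalling. Its values were 1.13, 1.29 and 2.79 in OE, against −1.76, −1.61 and −1.13 in CTRL. Here the spread lay among the OE mice, where OE 3 stood well above the other two. The change was 9.429-fold (95% confidence interval 4.899 to 18.15, adjusted p = 0.001537), and without OE 3 the log2 change was 2.71 in place of 3.24. The gene kept its call in that fit.

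*Postn* encodes periostin, which cross-links collagen, binds integrins and is the usual genetic marker of the activated cardiac fibroblast. Its values were 0.85, 1.14 and 1.24 in OE, against −1.85, −2.06 and −0.85 in CTRL. CTRL 3 was again the highest CTRL array, as for *Cilp* and *Cthrc1*. The change was 6.326-fold (95% confidence interval 3.987 to 10.04), with the lowest adjusted p of the 9 genes (0.0009019).

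**Figure D1:**
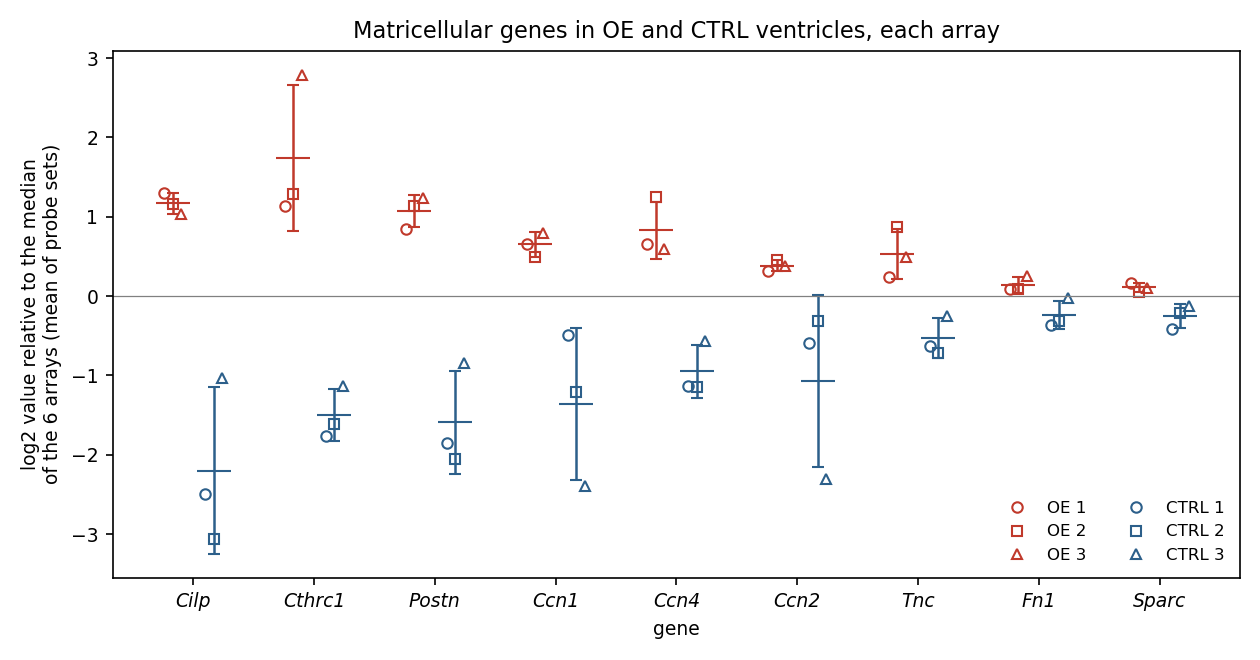
Values of the 9 measured genes on each array (vertical axis, log2 relative to the median of the 6 arrays, mean of the probe sets of a gene), with OE in red left of CTRL in blue; the horizontal bars are group means and the vertical bars 1 SD (n = 3 each). Every OE point lies above every CTRL point of its gene, and CTRL 3 is the lowest CTRL point for *Ccn1* (−2.39) and *Ccn2* (−2.30) but the highest for the other 7 genes.

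The 3 CCN genes form the second group by role. CCN proteins share a modular structure with a growth factor binding domain and act through integrins and proteoglycans. *Ccn4*, also called WISP1, a target of Wnt signalling, gave 0.65, 1.25 and 0.59 in OE and −1.13, −1.15 and −0.57 in CTRL. It was 3.436-fold higher (95% confidence interval 2.448 to 4.823, adjusted p = 0.001237), and the gap between the groups exceeded the spread within either of them.

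*Ccn1*, or CYR61, and *Ccn2*, or connective tissue growth factor, are also immediate early genes, which serum or stretch can induce within minutes. *Ccn1* gave 0.66, 0.49 and 0.80 in OE and −0.49, −1.21 and −2.39 in CTRL, a 4.032-fold difference (95% confidence interval 2.093 to 7.767, adjusted p = 0.01065). *Ccn2* gave 0.31, 0.45 and 0.38 in OE and −0.59, −0.31 and −2.30 in CTRL, a 2.725-fold difference (95% confidence interval 1.322 to 5.615, adjusted p = 0.04863). In both genes the OE arrays were alike and the CTRL arrays scattered, with CTRL 3 far below the others. Without CTRL 3 the log2 changes shrank to 1.50 for *Ccn1* and 0.83 for *Ccn2*, and both were still called. *Ccn2* was no longer called when CTRL 1, OE 1, OE 2 or OE 3 was left out, with adjusted p-values up to 0.1119.

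Of 13 measured immediate early genes, a list chosen after these values were seen, CTRL 3 was the lowest CTRL array in 7, and CTRL 1 was the highest in 8. The scatter was wide in *Atf3*, which gave −0.43, 0.52 and 0.43 in OE and 0.83, −1.76 and −2.27 in CTRL. *Egr1* gave 0.10, 0.29 and −0.10 in OE and 1.06, −0.96 and −1.30 in CTRL. In both, CTRL 1 exceeded every OE array, which it did not for *Ccn1* or *Ccn2*. Of the 13 genes, 4 were called higher in OE and 0 lower, against 14.9% higher and 11.8% lower over all genes. The part of these genes in the *Ccn1* and *Ccn2* results was not tested.

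*Tnc*, *Fn1* and *Sparc* had the smallest estimated changes. *Tnc* encodes tenascin-C, a large glycoprotein that loosens cell adhesion and is typical of remodelling tissue. Its values were 0.24, 0.87 and 0.49 in OE, against −0.63, −0.72 and −0.25 in CTRL, a 2.094-fold difference (95% confidence interval 1.577 to 2.782, adjusted p = 0.004839). OE 2 was the highest array, and the groups did not overlap.

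*Fn1* encodes fibronectin, the adhesive glycoprotein onto which new matrix is assembled, and *Sparc* encodes a collagen-binding protein needed for procollagen processing. *Fn1* gave 0.09, 0.09 and 0.25 in OE and −0.37, −0.31 and −0.03 in CTRL, a 1.305-fold difference (95% confidence interval 1.104 to 1.542, adjusted p = 0.03065). *Sparc* gave 0.17, 0.05 and 0.10 in OE and −0.42, −0.22 and −0.12 in CTRL, a 1.282-fold difference (95% confidence interval 1.108 to 1.483, adjusted p = 0.02429). The groups were separate in both genes, but narrowly so. *Fn1* kept its call only without CTRL 3 and lost it without any other single array, while *Sparc* kept it without CTRL 3 or OE 2 and lost it without any of the other 4. When the arrays were centred on 42 ribosomal protein genes, the log2 changes of *Fn1* (0.17) and *Sparc* (0.14) were not called, with adjusted p-values of 0.1798 and 0.2382.

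That centring moved the median log2 change of all genes to −0.25, so that 1302 genes (7.16%) were called higher and 9236 (50.8%) lower. The other 7 matricellular genes were called higher under it as well, from *Cilp* at a log2 change of 3.15 to *Tnc* at 0.85. One-way analysis of variance, the test named in the methods of the study, called 4 of the 9 genes higher (*Postn*, *Cthrc1*, *Cilp* and *Ccn4*), and 1437 of all genes (7.9%). Its adjusted p-values for the other 5 lay between 0.0587 for *Tnc* and 0.19 for *Ccn2*.

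The probe sets of a gene did not always move together. Of the 17 probe sets, 14 were called higher, 1 lower and 2 neither, against 4867 of 34945 probe sets called higher (13.9%) and 3645 lower (10.4%). The 4 probe sets of *Ccn1* were alike, with log2 changes of 1.50 to 2.36, each called higher. The pair for *Ccn4* rose by different amounts, 2.47 for 1448594_at and 1.09 for 1448593_at.

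*Tnc* rose in 1 of its 2 probe sets. Probe set 1416342_at gave 0.46, 1.31 and 0.97 in OE and −1.24, −1.24 and −0.46 in CTRL, a 3.719-fold difference (adjusted p = 0.002079). Probe set 1456344_at gave 0.02, 0.44 and 0.01 in OE and −0.01, −0.19 and −0.04 in CTRL (adjusted p = 0.2139). In the second probe set only OE 2 stood clear of the rest, so the mean of 2.094-fold lies between unlike measurements.

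*Fn1* showed the same division. Probe set 1426642_at was 1.551-fold higher in OE (0.13, 0.15 and 0.54, against −0.52, −0.42 and −0.13 in CTRL, adjusted p = 0.01551). Probe set 1437218_at had overlapping groups, with 0.04, 0.03 and −0.03 in OE and −0.23, −0.20 and 0.07 in CTRL, and was not called (adjusted p = 0.3635).

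*Sparc* was the one gene whose probe sets pointed in opposite directions. Probe set 1448392_at was 1.857-fold higher (0.34, 0.28 and 0.40 in OE, −0.78, −0.60 and −0.28 in CTRL, adjusted p = 0.002481), and 1416589_at was 1.586-fold higher (adjusted p = 0.005491). Probe set 1458204_at was lower, with −0.15, −0.36 and −0.32 in OE against 0.17, 0.30 and 0.15 in CTRL, a log2 change of −0.48 (adjusted p = 0.007968). The small change of *Sparc* as a gene is therefore a mean over opposed probe sets, and the median of the 3 gave a log2 change of 0.67. Where on the transcript each probe set binds was not examined.

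**Figure D2:**
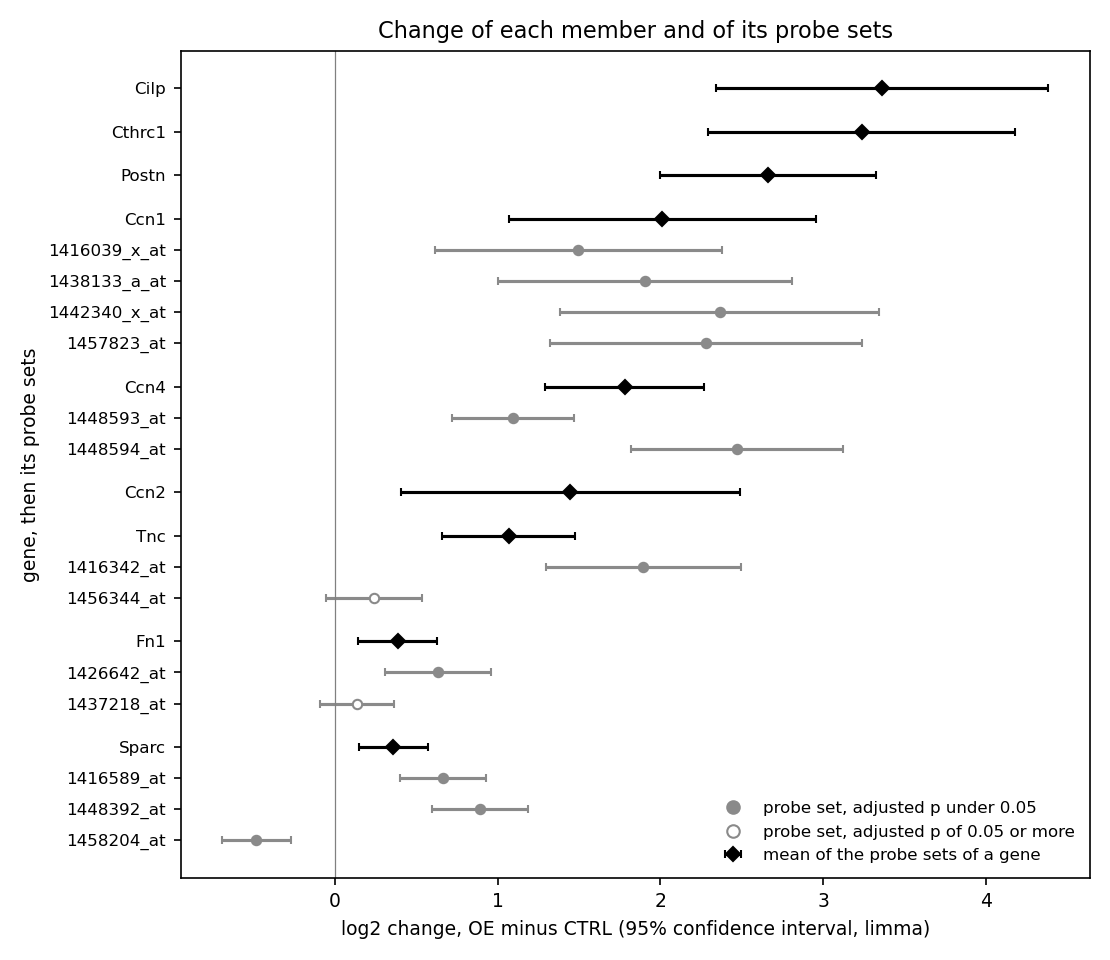
Log2 change, OE minus CTRL, with its 95% confidence interval from limma, for each gene (black diamonds, mean of its probe sets) and for each probe set of genes that have several (grey circles, filled where the adjusted p is under 0.05). The estimates of *Cilp*, *Cthrc1* and *Postn* lie furthest to the right among the genes, and 1458204_at of *Sparc*, at −0.48, is the single probe set to the left of 0.

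Averaged over the 9 genes, the values were 0.60, 0.75 and 0.85 in OE and −1.08, −1.18 and −0.96 in CTRL. This mean hid distinct orders among the mice of a genotype. CTRL 3 was the highest CTRL array for *Postn*, *Tnc*, *Sparc*, *Cthrc1*, *Cilp*, *Ccn4* and *Fn1*, and the lowest for *Ccn1* and *Ccn2*. Among the OE arrays no such split appeared: OE 3 was the highest for *Postn*, *Cthrc1*, *Ccn1* and *Fn1*, OE 2 for *Tnc*, *Ccn2* and *Ccn4*, and OE 1 for *Sparc* and *Cilp*. Without CTRL 3, the log2 change of *Cilp* was 3.95 in place of 3.36, a move opposite to that of *Ccn1* and *Ccn2*. The place of CTRL 3 was not particular to the matricellular genes. Among the other genes examined, it was also the highest CTRL array for *Comp*, *Timp1*, *Ltbp2* and *Col3a1*, and the lowest for *Angptl4*.

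Over the 6 arrays, *Postn* and *Cilp* had a Pearson correlation of 0.99, as did *Tnc* and *Ccn4*, and that of *Ccn1* and *Ccn2* was 0.93. The lowest was 0.35, between *Ccn2* and *Fn1*, and that of *Ccn2* and *Cilp* was 0.49. All such correlations share the difference between the genotypes and are given as a description. The 5 genes outside the set most like the mean of the 9 were *Tspan6* (r = 0.9989), *Fam207a* (0.9988), *Thoc5* (0.9987), *Chmp4b* (0.9984) and *Ccz1* (0.998), but 1032 genes had an r over 0.95, so a high r was common.

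**Figure D3:**
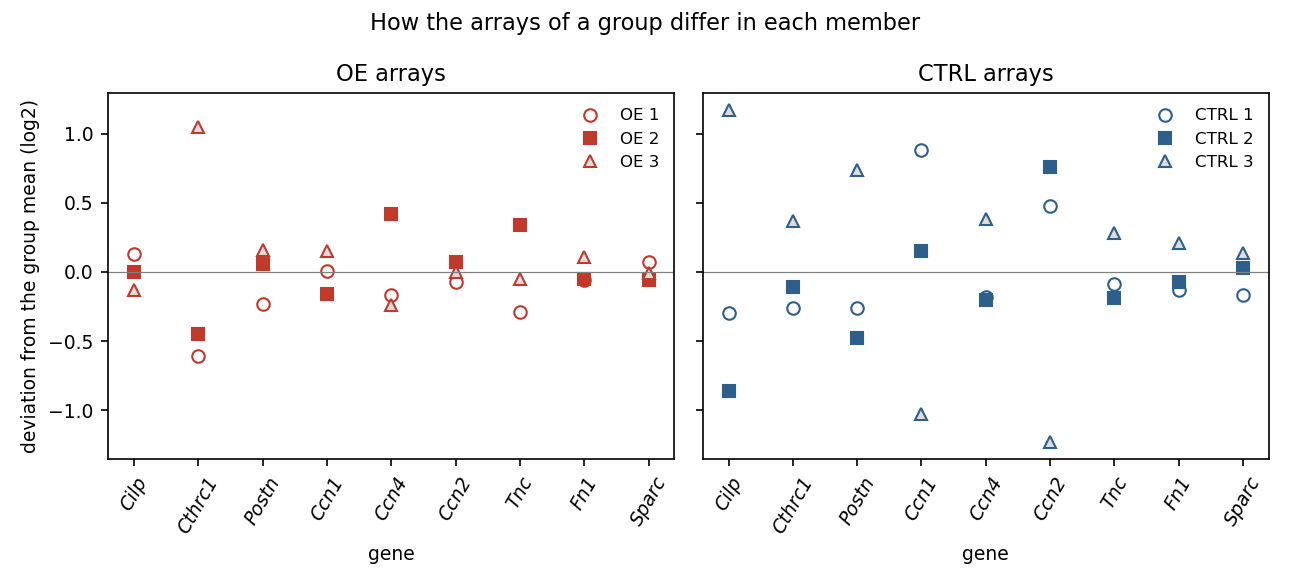
Deviation of each array from the mean of its genotype (vertical axis, log2) for the 9 genes, OE arrays on the left and CTRL arrays on the right. CTRL 3 lies above its group mean for 7 genes and below it for *Ccn1* and *Ccn2*, and OE 3 stands above the other OE arrays in *Cthrc1*.

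Of 19 measured paralogues of the 10 listed genes, 3 were higher, 2 lower and 14 neither, with a median log2 change of −0.01. These shares are near those over all genes (14.9% higher and 11.8% lower), and 4 of the genes not called, *Ibsp*, *Dmp1*, *Dspp* and *Mepe*, are relatives of *Spp1*, which was not analysed here. *Ccn5*, which encodes a CCN protein without the C-terminal module of the others, gave 1.34, 1.09 and 1.52 in OE and −1.09, −1.50 and −1.19 in CTRL, a log2 change of 2.58 (adjusted p = 9.809e-05). *Fstl1*, a secreted follistatin-like relative of *Sparc*, gave 0.81, 0.77 and 0.87 in OE and −1.21, −1.26 and −0.77 in CTRL (log2 change 1.90, adjusted p = 0.0001797). Both had non-overlapping groups and were called without each array in turn.

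*Tgfbi*, the paralogue of *Postn*, had a log2 change of 0.64 (adjusted p = 0.008597). *Tnxb*, the tenascin of resting connective tissue, was lower by contrast with *Tnc*, at −0.49, −0.73 and −0.22 in OE and 0.22, 0.40 and 0.58 in CTRL (log2 change −0.88, adjusted p = 0.004384). *Spock2*, a proteoglycan of the *Sparc* family, was lower at −0.38 (adjusted p = 0.02838), a call lost without OE 1, OE 2, CTRL 2 or CTRL 3. *Ccn6* (0.01) and *Spock1* (−0.01) were not called. With the arrays centred on ribosomal protein genes, 3 paralogues were higher and 9 lower, against 7.16% of all genes higher and 50.8% lower.

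Of 17 measured receptors of the matricellular proteins, 4 were higher and 1 lower, with a median log2 change of 0.15. The shares over all genes were 14.9% higher and 11.8% lower. *Cd44*, the hyaluronan receptor that also binds osteopontin, gave 0.28, 0.44 and 0.76 in OE and −0.70, −0.76 and −0.34 in CTRL (log2 change 1.09, adjusted p = 0.002253). *Itgb5*, the integrin subunit that pairs with the alpha v chain to bind periostin, gave 0.60, 0.36 and 0.46 in OE and −0.60, −0.43 and −0.34 in CTRL (log2 change 0.93, adjusted p = 0.000777). These were the receptors called higher without each array in turn and also after centring on ribosomal protein genes.

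The syndecan *Sdc4* (0.61, adjusted p = 0.02234) and the integrin subunit *Itgb1* (0.25, adjusted p = 0.04077) were called higher and *Itgb6* lower (−0.43, adjusted p = 0.04945). Of the 6 fits that left out an array, *Sdc4* kept its call without OE 2 or CTRL 2, *Itgb1* without CTRL 1 and *Itgb6* without OE 2 or CTRL 3. *Sdc4* and *Itgb1* were not called after centring on ribosomal protein genes. That centring gave 2 receptors higher and 5 lower, against 7.16% of all genes higher and 50.8% lower. *Fzd6* (−0.01) and *Ptk7* (0.03), receptors of the Wnt pathway in which *Cthrc1* acts, were not called.

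Among the inducers, the TGF-beta ligands divided. *Tgfb2* gave 0.21, 0.55 and 0.63 in OE and −1.09, −1.06 and −0.21 in CTRL (log2 change 1.25, adjusted p = 0.007652), and *Tgfb3* gave 0.54, 0.43 and 0.36 in OE and −0.57, −1.12 and −0.36 in CTRL (1.13, adjusted p = 0.003969). *Tgfb1* was lower, at −0.18, −0.09 and −0.11 in OE and 0.09, 0.22 and 0.05 in CTRL (−0.25, adjusted p = 0.04139), a call that remained in 1 of the 6 fits that left out an array. The co-receptors *Tgfbr3* (−0.70, adjusted p = 0.001474) and *Eng* (−0.34, adjusted p = 0.01621) were lower, *Eng* not so without OE 2, and the signalling receptors *Tgfbr1* (0.00) and *Acvrl1* (0.14) were not called. One-way analysis of variance called 0 of the 8 measured ligands and receptors higher and 1 lower, and 7.9% of all genes higher. Of 9 measured signal carriers and feedback genes, *Skil* was higher (0.33, adjusted p = 0.02243) and *Smad4* lower (−0.30, adjusted p = 0.02175). The other 7 were neither, among them *Ltbp1* (0.01) and *Smurf2* (0.05). Over all genes, 14.9% were called higher and 11.8% lower. *Skil* lost its call without OE 1, OE 3 or CTRL 2, and *Smad4* without OE 1, OE 2, CTRL 2 or CTRL 3, and after centring on ribosomal protein genes 0 of these 9 genes were higher and 5 lower.

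Of 14 measured genes of the YAP, TAZ and TEAD axis, 3 were higher and 0 lower, against 14.9% higher and 11.8% lower over all genes. *Ankrd1*, a known target of YAP that cardiomyocytes also express under stress, gave 0.36, 0.42 and 0.34 in OE and −1.0, −0.86 and −0.33 in CTRL (log2 change 1.10, adjusted p = 0.002617). *Wwtr1*, which encodes TAZ, was at 0.42 (adjusted p = 0.02695) and *Yap1* at 0.38 (adjusted p = 0.03907), while *Tead3* (−0.01) and *Mob1a* (0.04) were not called. Among the fits that left out an array, *Wwtr1* was called only without CTRL 3 and *Yap1* only without OE 2. After centring on ribosomal protein genes 1 gene of this axis was higher and 4 were lower, against 7.16% and 50.8% of all genes. Of the 8 genes of the SRF and MRTF axis, 2 were higher and 6 were not called, against the same shares of 14.9% and 11.8% over all genes. *Acta2* (1.08, adjusted p = 0.00291) and *Tagln* (0.82, adjusted p = 0.00292) were higher, and *Srf* (0.05) and *Myocd* (0.07) were among those not called. *Acta2* and *Tagln* are also smooth muscle markers, a list of which 3 were higher and 3 lower. After centring on ribosomal protein genes *Acta2* and *Tagln* were still higher, and *Mrtfa* (−0.30) and *Mrtfb* (−0.38) were lower.

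Markers of the cell types that a ventricle holds were counted in the same way. Of the activated fibroblast markers, 12 of 14 were higher and 0 lower, with a median log2 change of 1.45. Over all genes, 14.9% were called higher and 11.8% lower. This list was chosen with earlier results of these data known, so its likeness to the matricellular genes is a description only. The list mean lay between 0.69 and 0.75 in OE and between −1.02 and −0.61 in CTRL. *Comp*, a matrix protein of cartilage and scar, gave 1.71, 1.50 and 1.75 in OE and −2.11, −2.48 and −1.50 in CTRL (3.68, adjusted p = 0.0001151). *Timp1* (3.26), an inhibitor of matrix metalloproteinases, *Ltbp2* (2.76) and *Col8a1* (2.27) rose as well. *Fap* (0.12) and *Chad* (−0.16) were not called. All 12 calls remained without each array in turn and after centring on ribosomal protein genes, although *Acta2* is also a marker of smooth muscle.

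General fibroblast markers were divided. Of 14, 6 were higher, 3 lower and 5 neither, with a median of 0.27, against 14.9% higher and 11.8% lower over all genes. The list mean lay between 0.08 and 0.24 in OE and between −0.39 and −0.09 in CTRL. *Mfap5* (1.81), *Col3a1* (1.43), *Col1a2* (1.29) and *Pi16* (1.08) led the rises, while *Ddr2* (−0.41), *Gsn* (−0.35) and *Dpt* (−0.31) were lower, of which 1 was called without OE 2. *Dcn* (0.03) and *Pdgfra* (0.14), which mark fibroblasts at rest as well, were not called. The part of a change in fibroblast number in these values was not tested.

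Of 18 macrophage markers, 7 were higher and 0 lower, with a median of 0.30, against 14.9% higher and 11.8% lower over all genes. The list mean lay between 0.02 and 0.29 in OE and between −0.28 and −0.05 in CTRL. *Lgals3* gave 0.59, 0.45 and 0.12 in OE and −1.14, −0.96 and −0.12 in CTRL (1.13, adjusted p = 0.01588), with CTRL 3 again the highest CTRL array. *C1qb* (0.70), *Ms4a7* (0.59) and *Cd68* (0.58) were higher, and *Lyve1* (0.07) and *Trem2* (0.09) were not called. *Lgals3* lost its call without OE 1 or CTRL 2. *Cd68* lost it without OE 2, OE 3, CTRL 1 or CTRL 2, and after centring on ribosomal protein genes. The number called higher fell to 4 without CTRL 1, OE 2 or OE 3 and to 3 without CTRL 2. After centring on ribosomal protein genes 4 were higher and 2 lower, *Cd163* (−0.865) and *Mertk* (−0.442), against 7.16% and 50.8% of all genes. *Cd163* had a log2 change of −0.65 in the main fit, where it was not called, and was called lower without OE 3. One-way analysis of variance called 1 of the 18 markers higher, and 7.9% of all genes.

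Of 12 endothelial markers, 0 were higher and 7 lower (median −0.48), against 14.9% higher and 11.8% lower over all genes. The largest called falls were in *Robo4* (−0.74), *Flt1* (−0.62), *Erg* (−0.58) and *Egfl7* (−0.50). *Kdr* (−0.63) had overlapping groups and was not called. The list mean lay between −0.25 and −0.08 in OE and between 0.14 and 0.38 in CTRL. *Pecam1* (−0.07) and *Cldn5* (−0.09) were not called. Without OE 2, 4 endothelial markers were lower, and after centring on ribosomal protein genes 11 were, as were 50.8% of all genes. Among the fits that left out an array, *Egfl7* kept its call only without CTRL 1, and *Flt1* lost it without CTRL 2. Of 12 cardiomyocyte markers, 2 were higher and 7 lower (median −0.44), again against 14.9% higher and 11.8% lower over all genes. Their list mean lay between −0.15 and −0.12 in OE and between 0.06 and 0.15 in CTRL. *Nppa*, a stress marker of cardiomyocytes, was higher at 1.29 and *Mybpc3* at 0.28, while *Myh6* (−1.30), *Myl3* (−0.75), *Pln* (−0.65) and *Myl2* (−0.58) led those lower, and *Actc1* (0.06) and *Tnnt2* (−0.10) were not called. *Mybpc3* kept its call in 1 of the 6 fits that left out an array, that without CTRL 2. After centring on ribosomal protein genes 1 cardiomyocyte marker was higher and 8 were lower, against 7.16% and 50.8% of all genes. Since *Myh6* drives the Cre recombinase that both genotypes carried, its own fall of 1.30 on the log2 scale is recorded beside the transgene. How far the shift in these markers enters the rise of the matricellular genes was not tested.

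**Figure D4:**
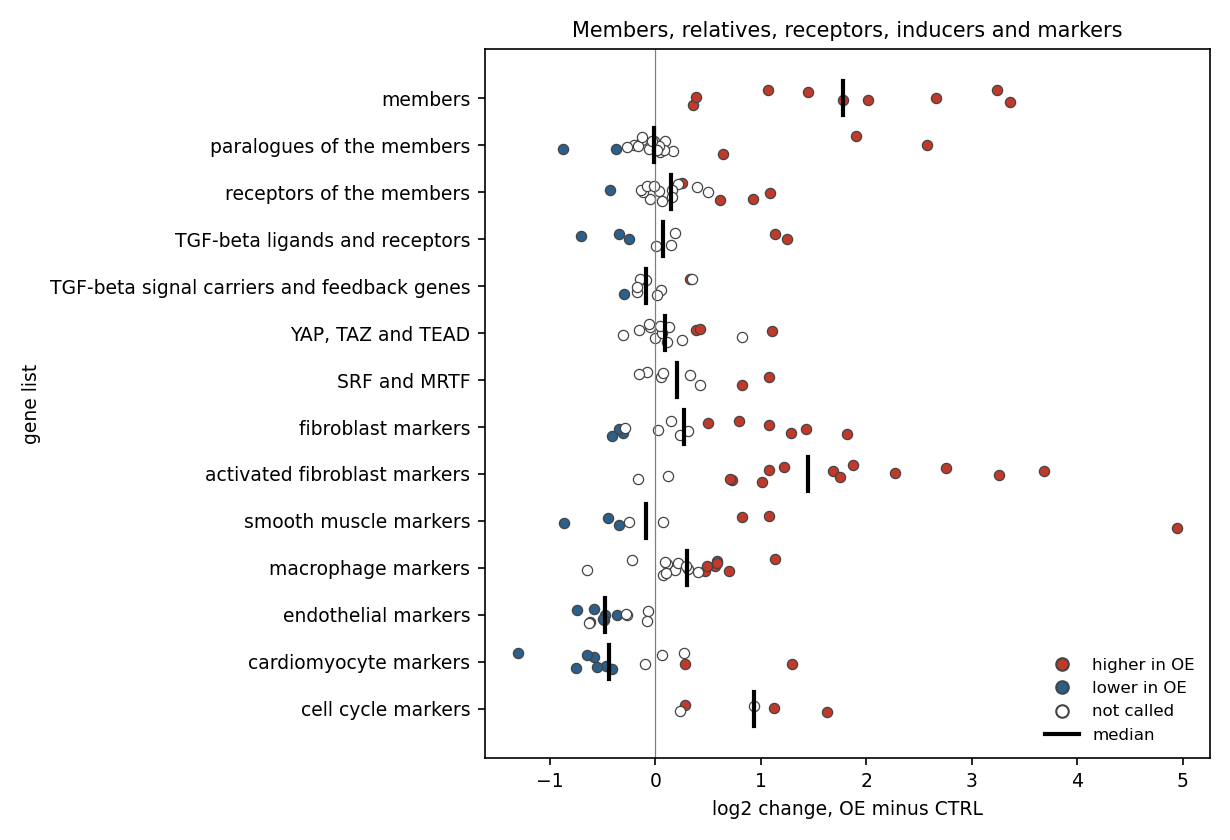
Log2 change, OE minus CTRL (horizontal axis), of each measured gene in the matricellular set and in 13 lists of related genes (rows); red points were called higher in OE, blue lower and white neither, and black bars are list medians. The matricellular genes (median 1.78) and the activated fibroblast markers (median 1.45) lie to the right, whereas paralogues, receptors and inducers centre near 0. The genes and lists were chosen with earlier results of these data known.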

How the data were processed

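RNA from the ventricles of 3 OE and 3 CTRL mice was hybridised to Affymetrix whole-genome mouse arrays. The authors deposited values, taken here as log2, made in GeneSpring GX by robust multi-array averaging, quantile normalization and centring of each probe set on its median over all arrays. The centring was checked: the largest absolute probe set median was 5.0e-07. This centring leaves differences between groups as they were and removes the level. Values ran from −4.29 to 3.54. The number of arrays limits precision, and arrays have no read depth. Whether the arrays of a group come from separate litters was not given in the sources used here.

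Of 45101 probe sets, 34945 named 1 gene, 932 several and 9160 none, and 64 were array controls. Symbols were updated through RefSeq, and the mean of the probe sets of a gene was used. OE was compared with CTRL by limma 3.58.1 (lmFit and eBayes, two-sided) in R 4.3.3 without covariates, with Benjamini-Hochberg adjustment over all 18193 genes, or all 34945 probe sets, and a threshold of 0.05. Confidence intervals are at 95%. The fit was also run on simulated data with independent noise in each gene, which is a check of the code and does not bear on the calls. Results were recomputed with array weights, with one-way analysis of variance, with other summaries of probe sets, other centrings, a replicate block or a limit of 1.2-fold, and without each array in turn. From each list, the largest called changes, up to 4 in each direction, and the smallest uncalled ones, up to 2, are named. The members and lists were chosen with earlier results of these data known. *Spp1* and promoters of *Cthrc1*, *Ccn2*, *Ccn4* and *Fn1* were not analysed here.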

Additional observations from a re-analysis of the deposited data

How the results depend on the processing

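Under 15 alternatives, the log2 changes of the 9 matricellular genes gave 135 values, of which 114 kept their side of the threshold. Analysis of variance, the replicate block and the limit of 1.2-fold leave the log2 change itself as it is, and other summaries of probe sets cannot move genes with 1 probe set, so a kept direction is not counted. The 21 losses of a call concerned *Fn1* (7), *Sparc* (6), *Ccn2* (6), *Tnc* (1) and *Ccn1* (1), and *Postn*, *Cthrc1*, *Cilp* and *Ccn4* lost none. One-way analysis of variance called 4 of the 9 genes higher, 6 of the 17 probe sets in place of 15, and 37 genes of all the lists in place of 72, where a gene in several lists counts once. Leaving out each array in turn gave 6 to 9 matricellular genes called higher and 55 to 68 list genes called. With the median of the probe sets of a gene, *Ccn2* was not called (adjusted p = 0.0518). Centring on ribosomal protein genes called 93 list genes and moved 13 list counts by over 1.5 times, with 50.8% of all genes called lower. The replicate numbers did not pair the arrays: deviations of arrays with the same number correlated at 0.07, −0.117 and 0.025, and 2 of the 6 arrays correlated best with their own number. A fit with the replicate block called 9 matricellular genes higher and 64 list genes in all. The limits are the number of arrays, the absence of levels, and probe sets of unknown place on the transcript.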

Other observations

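Smooth muscle markers, only some of which activated fibroblasts can also express, did not move as 1 group. Of 8 smooth muscle markers, 3 were higher and 3 lower in OE, with a median log2 change of −0.09. The shares over all genes were 14.9% higher and 11.8% lower. *Cnn1*, which encodes calponin 1, had a log2 change of 4.94 (adjusted p = 5.416e-05), and *Acta2* (1.08) and *Tagln* (0.82) were higher with it. *Smtn* (−0.87), *Mylk* (−0.45) and *Myh11* (−0.34), the smooth muscle myosin heavy chain, were lower, and *Myocd* (0.07) and *Lmod1* (−0.25) were not called. All 6 of these calls remained without each array in turn and after centring on ribosomal protein genes.

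Of 5 measured cell cycle markers, 3 were higher and 0 lower, with a median of 0.93, against 14.9% higher and 11.8% lower over all genes. *Birc5* (1.63, adjusted p = 0.005183) and *Cdk1* (1.12, adjusted p = 0.002283) were called in every fit that left out an array, and *Top2a* (0.28, adjusted p = 0.032) was not. *Mki67*, at 0.93 (adjusted p = 0.07318), and *Aurkb*, at 0.24 (adjusted p = 0.146), were not called. Which cells of the ventricle carried these mRNAs could not be read from the arrays.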
